A study of Aspergillus fumigatus with 12 samples.

Results

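A set of 15 genes, 0.146% of the 10276 in the deposited table, lay near the bottom of the range in basic medium and higher in cultures given a dye, a phenolic acid or both. They were chosen by their measured levels, so those levels are a description and carry no test. A gene was taken where it was under 1 FPKM in all 3 libraries of basic medium and at least 2 FPKM in all 3 libraries of 1 or more treated groups, with a mean over the 12 libraries under 5 FPKM. FPKM is a count of sequenced fragments corrected for the length of the gene and the depth of the library. A group is called on in a gene where all 3 of its libraries reached 2 FPKM.

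The libraries come from mycelium of strain X-13, named Trametes hirsuta in the series title, whereas the organism field of the samples gives Aspergillus fumigatus. All 4 groups share a basic medium, which is given alone in CK, with Ponceau 2R in P2R, with sinapic acid in SA and with both compounds in P2R+SA, at 3 libraries each. No doses are given in the sources used here, and nothing says whether the 3 libraries of a group were separate cultures, so a p-value here weighs a difference only against library-to-library spread, part of which may be technical. The design text places all groups at 48 h, but the column headers of the single-library files carry 36 for CK and P2R and 48 for SA and P2R+SA, with a further unexplained 4 before SA in the P2R+SA headers. If 36 and 48 are times, an effect of sinapic acid cannot be told apart from one of time at any level below.

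Trametes hirsuta is a white-rot fungus, a wood decayer that secretes oxidative enzymes such as laccases and peroxidases. Ponceau 2R is a red azo dye, a class of coloured compounds that such enzymes can break down. Sinapic acid is a plant phenolic acid of the kind released from lignin, and phenolics of this kind can serve as mediators that carry electrons from the enzyme to a substrate. Fungal genomes hold many genes with little or no transcript in a plain medium. The question of the series is how sinapic acid acts in cultures that hold the dye. The files pair no ID with a name or product, and 0 of 10276 IDs matched the Aspergillus fumigatus table at hand (10086 genes, assembly ASM265v1), so no function, position or sequence is given for any of the 15 genes.

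The FPKM values trace back to 35919371 to 39408704 whole fragments per library. Spearman correlations between replicates, across genes, were highest in CK (0.9956 to 0.9965) and lowest in SA (0.9744 to 0.9829). P2R+SA replicate 1 stood apart from replicates 2 and 3 of its group: its root mean square log2 distance over tested genes was 0.48 to their mean and 0.42 to the SA mean. SA replicate 1 was about as near to the P2R+SA mean (0.47) as to the mean of the other SA libraries (0.48). Results that rest on these libraries are given with and without them.

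Most of the table's low genes stayed low under treatment. In 1083 genes every CK library was under 1 FPKM and the mean was under 5 FPKM, and 1026 of them (94.7%) never reached 2 FPKM in any treated library. A further 57 genes did so in at least 1 treated library. Of these, 32 reached it in at most 1 of the 3 libraries of any group, 10 in 2 of 3, and 15 in all 3. The 15 genes are therefore 1.39% of the low genes. Of the 10 genes that fell short by a single library, 7 were short in P2R+SA, 3 of them in replicate 1, and 3 were short in SA, all of them in replicate 3.

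**Figure D1:**
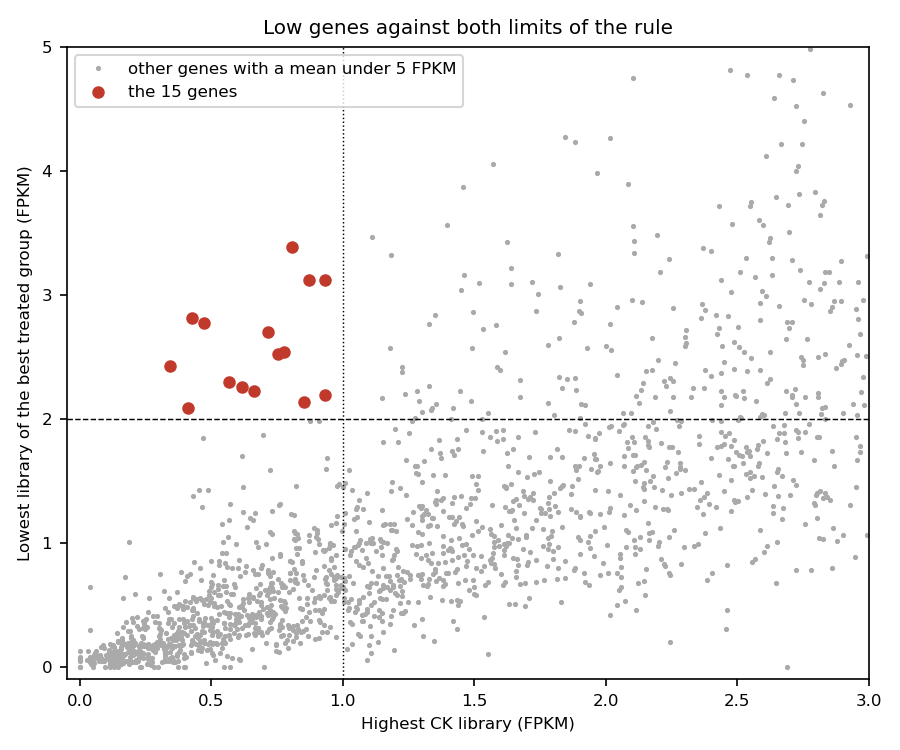
The horizontal axis gives the highest of the 3 CK libraries and the vertical axis the lowest library of the best treated group, both in FPKM, for genes with a mean over 0.05 and under 5 FPKM; the axes end at 3 and 5 FPKM. The 15 genes (red) fill the corner left of 1 FPKM and above 2 FPKM, and grey genes lie close to both limits, with no gap between them and the 15.

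The limits cut a continuous range. Just inside the limit for a treated group was A03026, whose lowest P2R+SA library held 2.09 FPKM, and just outside was A10668, whose best group had a lowest library of 1.98 FPKM. On the CK side, A10426 reached 0.93 FPKM in its highest CK library and the nearest gene outside, A10325, 1.11 FPKM. Under the limit on the mean, A06692 was highest with 4.57 FPKM, and A02889 was the lowest of the genes left out by it with 6.40 FPKM.

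The words "switched on" describe these data only loosely. In 14 of the 15 genes fragments were found in every CK library, and A06692 had 0 fragments in 1 CK library. CK means ran from 0.16 to 0.90 FPKM with a median of 0.53, from 0 to 73 fragments per library with a median of 28. In the groups that were on, single libraries held 2.09 to 43.4 FPKM with a median of 2.77, from 28 to 627 fragments with a median of 118. Of these 54 values 31 were under 3 FPKM, and the 6 values of at least 5 FPKM belonged to 3 genes. The mean of an on group was 2.63 to 112 times the CK mean, with a median of 5.85, and without A06692 the highest ratio was 11. In its highest group the mean of a gene ranked at percentile 20.1 to 50.2 of all genes in that group, with a median of 23.9 and the highest rank that of A06692 in SA, against 4.7 to 11.3 in CK. In RNA of whole mycelium, more transcript per cell and more cells with the transcript cannot be told apart.

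P2R was on in 7 genes, SA in 3 and P2R+SA in 8, which makes 18 cases. By combination, 5 genes were on in P2R only, 2 in SA only, 5 in P2R+SA only, 2 in P2R and P2R+SA, and 1 in SA and P2R+SA. No gene was on in both P2R and SA, and so none in all 3 treated groups. In single treated libraries the number of the 15 genes at 2 FPKM or more was 7, 9 and 9 in P2R replicates 1 to 3, 8, 8 and 6 in SA, and 8, 11 and 12 in P2R+SA. P2R+SA replicate 1 was the lowest library of its group in 10 of the 15 genes and replicate 3 the highest in 10. The share over all genes was not computed, so these counts show nothing particular to the 15. Without P2R+SA replicate 1 all 15 genes still passed the rule and 13 kept their combination. Only the limit on the mean could have removed a gene there, since the other limits need every library and loosen with fewer. Without SA replicate 1 and P2R+SA replicate 1 together 17 genes passed, 14 of them from the 15, and 10 of those 14 kept their combination.

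**Figure D2:**
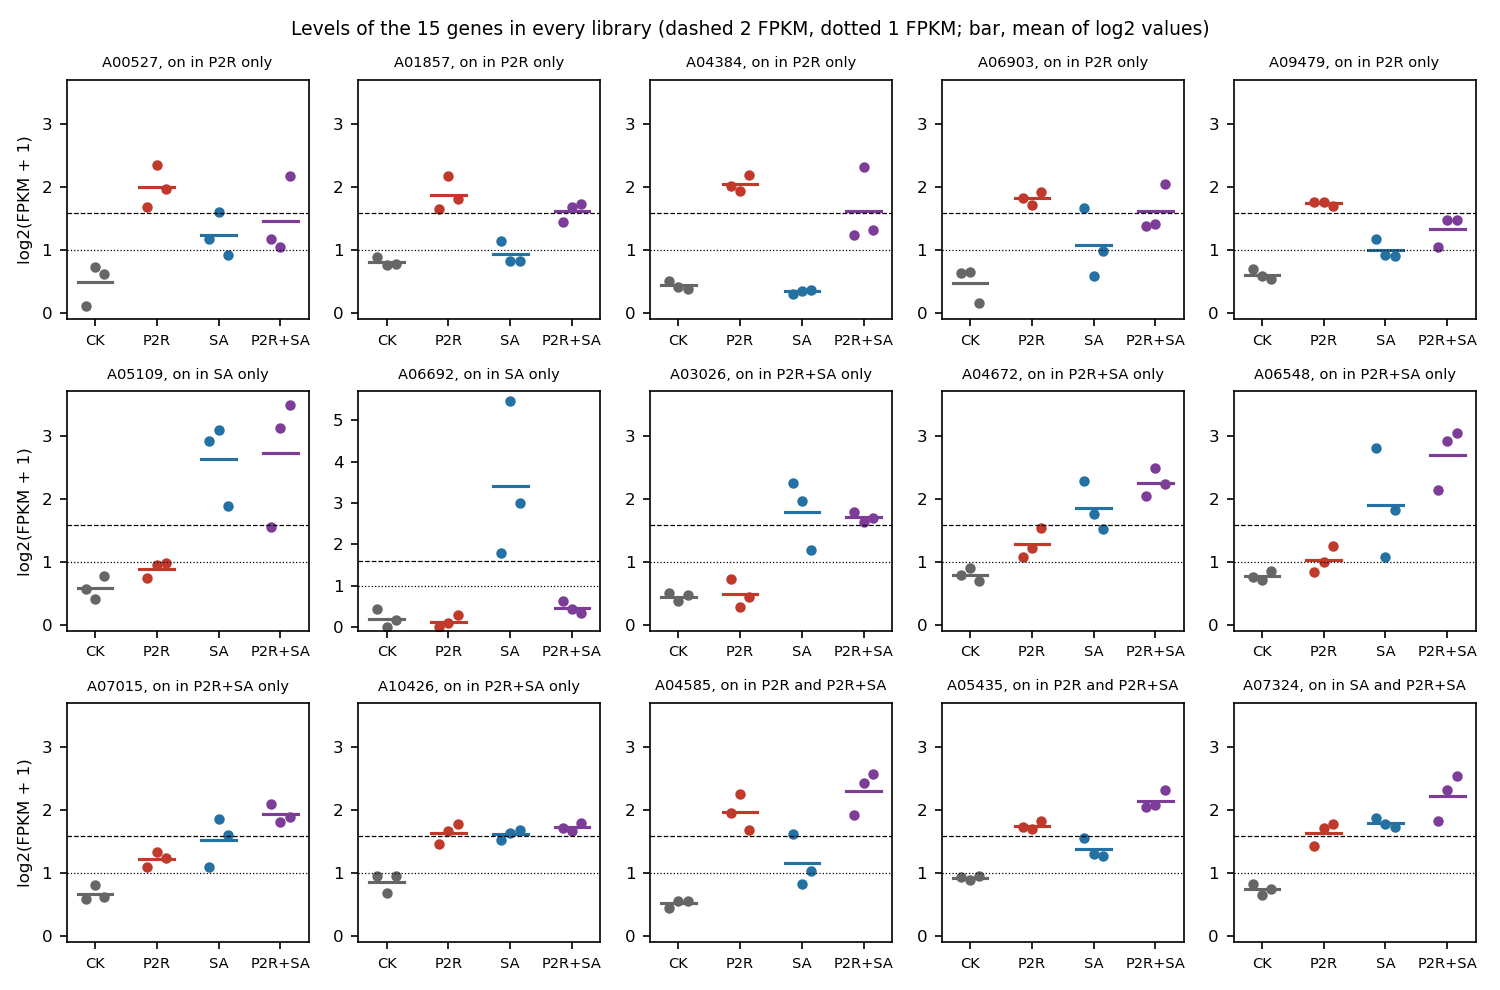
Each panel shows 1 gene, with log2(FPKM + 1) on the vertical axis and the 4 groups on the horizontal axis; points are libraries in replicate order, bars the mean of the log2 values of 3 libraries, the dashed line 2 FPKM and the dotted line 1 FPKM. The vertical axis of A06692 is longer than the others, for its SA replicate 2 of 43.4 FPKM. CK points lie under the dotted line in every panel, as the rule requires, and many treated points fall between the lines.

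The 5 genes on in the dye cultures only all had their highest mean there, an order that the sorting favours. A04384, with a coding length of 3936 bp the longest of the 15, held 0.43, 0.33 and 0.31 FPKM in CK and 3.07, 2.82 and 3.59 FPKM in P2R. In SA it stayed at 0.24, 0.28 and 0.29 FPKM, the only gene of the 15 with every SA library under 1 FPKM. In P2R+SA it held 1.37, 3.97 and 1.49 FPKM. With the dye alone the replicates lay close together (3.16 ± 0.39 FPKM, SD, n = 3, 8.85 times the CK mean). With sinapic acid alone 3 of 3 libraries lay below every CK library, by a narrow gap. They held 34, 41 and 43 fragments against 63, 48 and 48 in CK, and a lowering by sinapic acid was not tested. With both compounds 3 of 3 libraries lay above CK but spread widely (2.28 ± 1.47 FPKM, SD, n = 3). Its P2R libraries held 410 to 516 fragments, more than in any other of the 5 genes.

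A00527, the shortest of the set with 330 bp, went from 0.08, 0.66 and 0.54 FPKM in CK to 2.23, 4.10 and 2.90 FPKM in P2R. It held 1.27, 2.05 and 0.89 FPKM in SA and 1.25, 1.07 and 3.52 FPKM in P2R+SA. All treated libraries exceeded all CK libraries, and P2R overlapped with P2R+SA through the latter's replicate 3. Few fragments stand behind it, 1 to 8 per library in CK and 28 to 50 in P2R, and 1 fragment was worth up to 0.084 FPKM. A06903, of 435 bp, had a similar course: 0.55, 0.57 and 0.12 FPKM in CK, 2.54, 2.30 and 2.77 FPKM in P2R, 2.18, 0.50 and 0.98 FPKM in SA, and 1.60, 1.68 and 3.15 FPKM in P2R+SA. Its SA libraries overlapped with CK through replicate 2, while every P2R+SA library lay above CK. Its fragments were few as well, 9, 9 and 2 in CK and 42, 37 and 44 in P2R.

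A09479, of 2508 bp, had the narrowest on group of the set. It held 2.38, 2.39 and 2.26 FPKM in P2R (2.34 ± 0.07 FPKM, SD, n = 3) against 0.62, 0.51 and 0.46 FPKM in CK. The P2R+SA libraries, at 1.06, 1.78 and 1.79 FPKM, lay between, overlapping neither with P2R nor with CK, and so did the SA libraries at 1.27, 0.89 and 0.88 FPKM. A01857, of 2289 bp, held 0.85, 0.70 and 0.72 FPKM in CK, 2.13, 3.54 and 2.50 FPKM in P2R, 1.22, 0.77 and 0.78 FPKM in SA, and 1.71, 2.20 and 2.31 FPKM in P2R+SA. Only replicate 1 kept P2R+SA from being on in it, and without that library A01857 counted as on in both dye groups. In all 5 genes the P2R+SA mean lay between the SA and the P2R mean. Their label needs a P2R+SA library under 2 FPKM, which favours a P2R+SA mean below the P2R mean.

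Both genes on in SA only carried high values, but in different ways. A05109, of 1563 bp, held 0.48, 0.33 and 0.71 FPKM in CK and 0.67, 0.92 and 0.98 FPKM in P2R, so the dye alone left every library under 1 FPKM. In SA it held 6.55, 7.50 and 2.70 FPKM, 11 times the CK mean, and in P2R+SA 1.93, 7.68 and 10.2 FPKM, 13.0 times the CK mean. The label "SA only" therefore rests on P2R+SA replicate 1, which missed the limit by a small amount, and without that library A05109 counted as on in SA and P2R+SA.

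A06692, of 390 bp, was the gene with the highest single value and the one whose combination group stayed low. It held 0.34, 0.00 and 0.13 FPKM in CK (5, 0 and 2 fragments), 0.00, 0.07 and 0.21 FPKM in P2R (0, 1 and 3 fragments), and 2.43, 43.4 and 7.05 FPKM in SA (34, 627 and 103 fragments). In P2R+SA it held 0.53, 0.35 and 0.26 FPKM, from 8, 5 and 4 fragments. No P2R+SA library reached the lowest SA library, and P2R+SA overlapped with CK. The SA mean of 17.6 ± 22.5 FPKM (SD, n = 3) was 112 times the CK mean, and without SA replicate 2 it was 4.74 FPKM, 30.1 times the CK mean. In that library A06692 made up 61.0% of the summed FPKM of the 15 genes, 71.2 with it and 27.8 without it. It also left the set without SA replicate 1 and P2R+SA replicate 1, because its mean over the other 10 libraries was 5.18 FPKM and passed the limit of 5.

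The 5 genes on in P2R+SA only differed in their levels with either compound alone. A06548, of 1197 bp, was the strongest, with 0.69, 0.64 and 0.81 FPKM in CK, 0.79, 0.99 and 1.37 FPKM in P2R, 5.95, 1.11 and 2.54 FPKM in SA, and 3.39, 6.56 and 7.25 FPKM in P2R+SA. The P2R libraries overlapped with CK, all SA libraries lay above CK, and SA overlapped with P2R+SA through SA replicate 1. A04672, of 1662 bp, went from 0.72, 0.87 and 0.61 FPKM in CK to 1.11, 1.32 and 1.88 FPKM in P2R, 3.87, 2.37 and 1.85 FPKM in SA, and 3.12, 4.60 and 3.71 FPKM in P2R+SA. Its group means were ordered the same way, 0.74, 1.43, 2.70 and 3.81 FPKM, and SA missed being on by replicate 3 alone.

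A07015, of 1236 bp, held 0.50, 0.75 and 0.53 FPKM in CK, 1.13, 1.53 and 1.35 FPKM in P2R, 1.15, 2.62 and 2.05 FPKM in SA, and 3.26, 2.52 and 2.72 FPKM in P2R+SA. Both single compounds lay above CK in 3 of 3 libraries, and SA missed being on by replicate 1 alone. A10426, of 1173 bp, held 0.93, 0.61 and 0.93 FPKM in CK, 1.77, 2.19 and 2.45 FPKM in P2R, 1.87, 2.10 and 2.23 FPKM in SA, and 2.29, 2.19 and 2.47 FPKM in P2R+SA. Its treated groups all overlapped, at 2.14 ± 0.34, 2.07 ± 0.18 and 2.32 ± 0.14 FPKM (SD, n = 3 each), and replicate 1 alone kept both P2R and SA from being on.

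In A03026, of 843 bp, the combination was not the highest group. It held 0.41, 0.29 and 0.39 FPKM in CK and 0.65, 0.22 and 0.36 FPKM in P2R, so the dye alone overlapped with basic medium. In SA it held 3.73, 2.88 and 1.27 FPKM and in P2R+SA 2.45, 2.09 and 2.24 FPKM. The SA mean (2.63 ± 1.25 FPKM) exceeded the P2R+SA mean (2.26 ± 0.18 FPKM, SD, n = 3 each) within their spread, and SA replicate 3 alone kept SA from being on. In all 5 genes called P2R+SA only, SA was thus a single library short of being on, replicate 2 in the case of A06548.

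**Figure D3:**
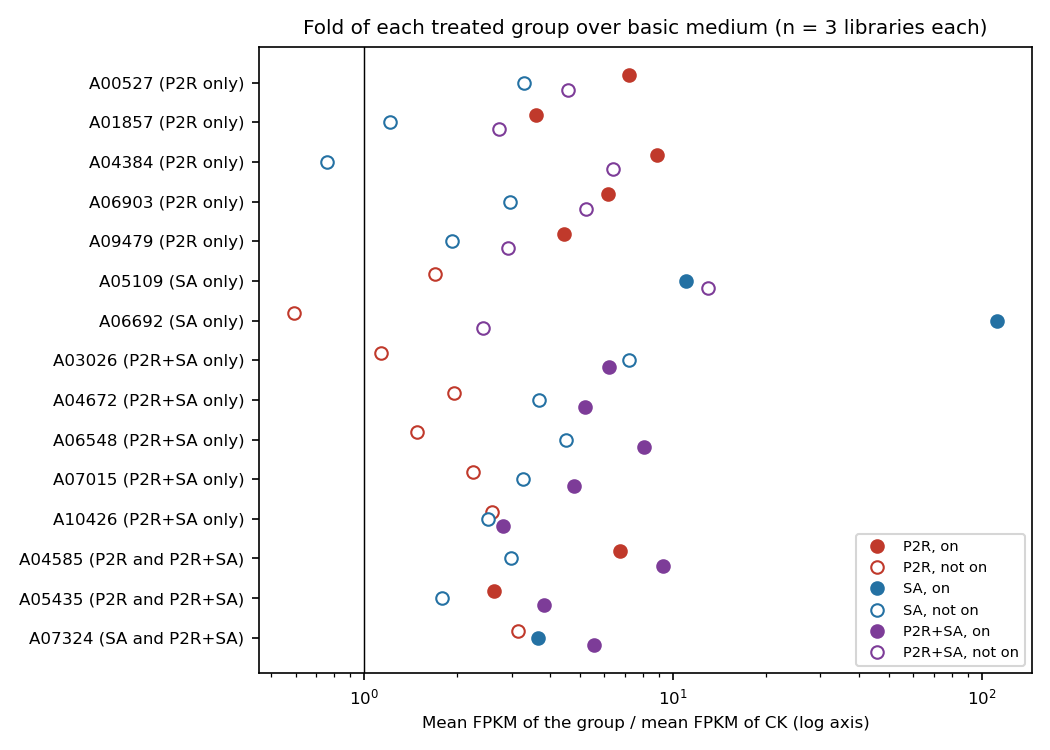
For each gene the horizontal axis (log scale) gives the mean FPKM of a treated group divided by the CK mean, with 3 libraries per group; filled points mark groups that were on and open points groups that were not. Many open points lie close to the filled point of the same gene, as in A10426 (2.60 and 2.51 open, 2.81 filled), while A06692 has a single filled point at 112 and open points at 0.593 and 2.42.

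The remaining genes were on in P2R+SA and in 1 of the single treatments. A04585, of 867 bp, went from 0.37, 0.47 and 0.47 FPKM in CK to 2.88, 3.77 and 2.21 FPKM in P2R and 2.77, 4.41 and 4.97 FPKM in P2R+SA, with 2.09, 0.78 and 1.05 FPKM in SA. A05435, of 927 bp, went from 0.92, 0.86 and 0.93 FPKM in CK to 2.32, 2.25 and 2.54 FPKM in P2R and 3.12, 3.21 and 4.01 FPKM in P2R+SA, with 1.95, 1.46 and 1.41 FPKM in SA. In A05435 the 4 groups did not overlap at all, in the order CK, SA, P2R, P2R+SA, whereas in A04585 P2R and P2R+SA overlapped. The rule itself places CK below P2R and P2R+SA in both genes. The share of all tested genes with P2R+SA wholly above P2R was not computed. A07324, of 894 bp, was on in SA and P2R+SA: it held 0.78, 0.58 and 0.68 FPKM in CK, 1.70, 2.30 and 2.42 FPKM in P2R, 2.68, 2.45 and 2.33 FPKM in SA, and 2.54, 3.97 and 4.79 FPKM in P2R+SA. Replicate 1 alone kept P2R from being on in A07324.

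For genes on in both groups of a comparison the rule sets the same limit on both groups, so these alone were tested. Limma was run on log2(FPKM + 1) over 9240 genes and all 12 libraries. The tested values still had to pass the rule, and a group with wider spread needs a higher mean to do so. Spread was pooled over all 4 groups, including CK, which the rule held under 1 FPKM. In A05435 the SD was 0.04 FPKM in CK and 0.49 FPKM in P2R+SA. The p-values are therefore not free of the choice of genes. P2R+SA against P2R had A04585 and A05435, and 1 of these 2 passed a Benjamini-Hochberg adjusted p of 0.05, where 19.8% of all tested genes did. A05435 was higher in P2R+SA by 0.40 log2 units (SE 0.13, 95% interval 0.12 to 0.67, limma adjusted p = 0.0476), with 3 of 3 P2R+SA libraries above every P2R library. That call lies at the threshold: it was lost with the replicate number as a block (limma adjusted p = 0.0729), with only the compared libraries (0.0923), with limma-voom on the recovered fragments (0.0741), and without any 1 of 9 libraries. A04585 did not pass (0.34 log2 units higher, SE 0.23, 95% interval -0.16 to 0.85, limma adjusted p = 0.318). It passed without SA replicate 1 and P2R+SA replicate 1 (0.54 log2 units, limma adjusted p = 0.0336) and with array quality weights (0.56, limma adjusted p = 0.00422). Leaving out 1 library gave no call but moved its value, to 0.54 without P2R+SA replicate 1, 0.20 without P2R replicate 3 and 0.21 without P2R+SA replicate 3.

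P2R+SA against SA could be tested in A07324 alone, and it did not pass (0.42 log2 units higher in P2R+SA, SE 0.17, 95% interval 0.04 to 0.80, limma adjusted p = 0.161), where 6.04% of all tested genes did. Its unadjusted limma p was 0.0315, and it passed without P2R+SA replicate 1 (0.62 log2 units, limma adjusted p = 0.0144), the library that overlapped with SA. It also passed without SA replicate 1 and P2R+SA replicate 1 (0.66, limma adjusted p = 0.0141) and with array quality weights (0.56, limma adjusted p = 0.0431). Without P2R+SA replicate 3 its value was 0.27 (limma adjusted p = 0.435). P2R against SA had no gene on in both groups, so it was not tested.

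How many treated groups lay wholly above CK is a description, since the rule kept CK low in all 15 genes. In P2R every library exceeded every CK library in 11 of the 15 genes, where 23.9% of all tested genes did so. In SA this held for 12 of 15, against 14.6% of tested genes, and in P2R+SA for 14 of 15, against 22.5%. The rule used these comparisons, and nothing is read from the shares. Of the genes in which the group was not on, the count was 4 of 8 in P2R, 9 of 12 in SA and 6 of 7 in P2R+SA. In 8 genes it held for all 3 treated groups, in 6 for a pair of them, and in A06692 for SA alone. The counts of 11, 12 and 14 were the same without SA replicate 1 and P2R+SA replicate 1. That is no check, since the P2R count uses neither library and the other counts could only rise. P2R did not lie wholly above CK in A03026, A05109, A06548 and A06692, SA did not in A01857, A04384 and A06903, and P2R+SA did not in A06692.

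As a description, the level with both compounds was set beside the sum of the single ones (P2R mean plus SA mean less CK mean). The P2R+SA mean was 0.02 to 1.62 times this sum with a median of 0.84, and above it in 6 of the 15 genes. The share over all tested genes was not computed, so such counts show nothing particular to the 15. In 7 genes all 3 P2R+SA libraries lay below the sum: A00527, A01857, A06903 and A09479 of the dye genes, A06692, and A03026 and A10426 of the combination genes. The labels of the dye genes and of A06692 need a P2R+SA library under 2 FPKM, which favours a place below the sum. In A05435 all 3 P2R+SA libraries lay above the sum, with a ratio of 1.12. The highest ratio was that of A06548, 5.73 ± 2.06 FPKM (SD, n = 3) against a sum of 3.54 FPKM, with 2 of 3 libraries above. Its label needs a library under 2 FPKM in each single treatment but none in P2R+SA, which favours a place above the sum. In A06548, SA replicate 1 was the highest SA library (5.95 FPKM) and P2R+SA replicate 1 the lowest of its group (3.39 FPKM). Leaving both out therefore had to raise its ratio. Without SA replicate 1 and P2R+SA replicate 1 the ratio of A06548 was 3.19, that of A05109 went from 1.11 to 1.64, and 7 genes lay above the sum. The side changed in 3 genes: A03026 went from 0.84 to 1.02 and A07324 from 0.96 to 1.14, while A07015 fell from 1.06 to 0.85.

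**Figure D4:**
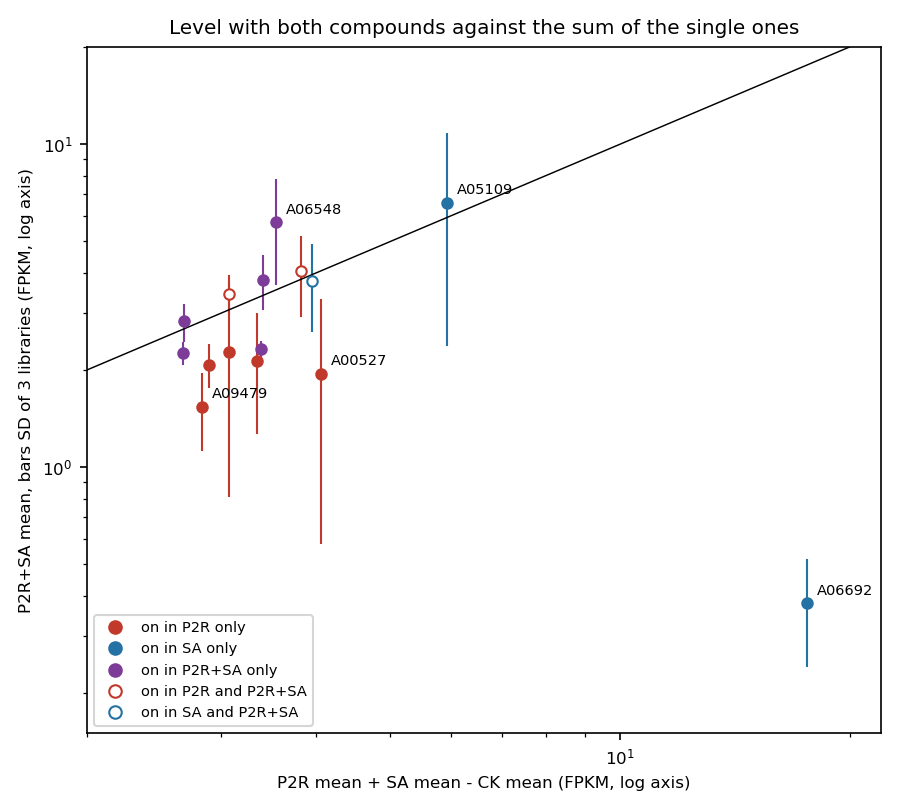
The horizontal axis gives the P2R mean plus the SA mean less the CK mean and the vertical axis the P2R+SA mean with the SD of 3 libraries, both in FPKM on log axes; the line marks equality and colours the combination of groups that were on. All 5 genes on in P2R only lie below the line, and A06692 lies far below it at 0.38 FPKM against a sum of 17.6 FPKM.

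Beside the 15, another 4 genes met every condition except the limit on the mean, and that limit alone places their means over the 12 libraries above those of the 15. A00755 went from 0.25 ± 0.11 FPKM in CK to 10.1 ± 4.56 FPKM in P2R and 25.0 ± 11.8 FPKM in P2R+SA (SD, n = 3 each). A02186 was on in all 3 treated groups, with 0.71 ± 0.22 FPKM in CK, 5.45 ± 0.80 FPKM in P2R, 7.32 ± 3.15 FPKM in SA and 30.4 ± 10.6 FPKM in P2R+SA (SD, n = 3 each), a combination that none of the 15 showed. The others were A02889, on in P2R and P2R+SA, and A01693, on in SA and P2R+SA. The lowest P2R+SA mean of the 4 was 9.12 FPKM in A02889, beside a highest of 6.59 FPKM among the 15 (A05109), whereas the SA mean of A06692 (17.6 FPKM) exceeded that of all 4.

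Beyond their levels the 15 genes had little in common in what the files record. Their coding lengths ran from 330 to 3936 bp with a median of 1173 bp, against a median of 1350 bp over 9854 genes with more than 50 fragments. No pair of them had neighbouring ID numbers, the smallest gap being 87, and whether ID order follows the genome is not given in the sources used here. The median coefficient of variation between replicates of these genes was 17.6% (CK), 19.0% (P2R), 38.9% (SA) and 28.3% (P2R+SA).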

How the data were processed

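The FPKM values were made by the authors before deposit, 1 column per library. Per the submitters' processing notes, HTSeq, HISAT2, fastp and R 3.2.0 were used, in roles that are not stated. No build, annotation or strand setting is given in the sources used here, so reads shared by near-identical or overlapping genes could not be checked. Single-library files and the series table agreed to within 4.9e-06 FPKM.

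Whole fragments were recovered from the FPKM values for 10276 of 10276 genes (tolerance 1e-04 fragments). Lengths came out whole within 0.01 bp for 9854 of 9854 genes with over 50 fragments, all multiples of 3, hence coding lengths. All replicate pairs differed by more than sampling noise (chi-square per degree of freedom of 24.6 or more).

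Members and lists were chosen with earlier results of these data known. The test was limma (version 3.58.1, R 4.3.3) on log2(FPKM + 1), which understates changes of low genes. It ran on 9240 genes that reached 1 FPKM in 3 libraries, over 12 libraries, with an intensity trend, 8 residual degrees of freedom and no block, two-sided, Benjamini-Hochberg adjusted. All 15 genes passed this filter through their on groups. The fit was also run on simulated data, with changed genes drawn from all tested genes and the same spread for a gene in every group. That run does not address low genes separately, nor the wider spread of SA and P2R+SA. The naming rule took the 2 highest genes of each combination by mean level in the on groups (9 genes). The other 6 are named after their values were seen, so that every gene is accounted for.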

Additional observations from a re-analysis of the deposited data

How the results depend on the processing

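The 15 genes rest on their limits. At 3 FPKM or more 3 remained, all in P2R+SA only: 2 kept their combination, and A05435 had been on in P2R and P2R+SA. With CK under 0.5 FPKM 4 remained (1 each in P2R only, SA only, P2R+SA only, and P2R and P2R+SA). No limit on the mean gave 19 genes, and 1.5 FPKM, an alternative chosen after seeing the data, gave 23. At 1.5 FPKM all 15 stayed, but only 9 of them kept their combination. At 3 FPKM P2R only, SA only, P2R and P2R+SA, and SA and P2R+SA each held 0 genes, and with CK under 0.5 FPKM the last held 0. With no limit on the mean 4 genes were on in P2R and P2R+SA, 2 in SA and P2R+SA and 1 in all 3 groups; at 1.5 FPKM 8 were on in P2R+SA only, 4 in P2R and P2R+SA, 3 in SA and P2R+SA and 2 in all 3. Without SA replicate 1 and P2R+SA replicate 1, 0 genes were on in SA only and 4 in SA and P2R+SA. Median-of-ratios scaling gave 17 genes, with the 15 and their combinations unchanged.

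With 1 library fewer the limits of 1 and 2 FPKM can only loosen, so a gene can leave only by its mean. Leaving out each library in turn kept all 15 genes and gave 15 to 21. The ranges were 4 to 6 for P2R only, 1 to 5 for SA only (5 without SA replicate 3, 1 without P2R+SA replicate 1), 3 to 9 for P2R+SA only (3 without SA replicate 1 or 3; 8, 9 and 8 without CK replicate 1, CK replicate 3 and P2R+SA replicate 1), 2 to 3 for P2R and P2R+SA, 0 to 3 for SA and P2R+SA (0 without P2R replicate 1; 3 without CK replicate 3 or SA replicate 1 or 3; 2 without SA replicate 2 or P2R+SA replicate 1) and 0 to 1 for all 3 groups (1 without P2R replicate 1).

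In P2R+SA against P2R, 0 of the 2 tested genes passed with a pseudocount of 0.1, quantile normalization, limma-voom, the compared libraries alone or the replicate block, and 2 with array quality weights or without SA replicate 1 and P2R+SA replicate 1. Leaving out 1 library gave 0 to 1, and A05435 held its call without SA replicate 1 or 2 or P2R+SA replicate 1 (limma adjusted p = 0.0324 to 0.164 over the 12). In P2R+SA against SA, A07324 passed (1 of 1) with array quality weights and without SA replicate 1 and P2R+SA replicate 1, and leaving out 1 library gave 0 to 1. The replicate block changed no other call. Between same-numbered libraries of different groups, deviations from the group means correlated at -0.32 to 0.54, and over 0.1 in 3 of 18 pairs. Whether replicate numbers pair the libraries is not given in the sources used here. No direction of a tested gene reversed. Depth limits A06692 and A00527, with 0 to 8 fragments per CK library, and A06903, with 9, 9 and 2. The cause of these changes was not tested.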
